A study of Homo sapiens with 6 samples.

Results

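The mitochondrial ribosomal proteins with MRPL and MRPS gene symbols were followed after repeated mild heat in HaCaT cells, which are human keratinocytes that divide without limit. Members were the rows of the deposited count table with a symbol made of MRPL or MRPS, a number and at most a letter A, B or C, and with a mean of at least 50 counts over the 6 libraries. Of 78 rows with such a symbol, 77 qualified, out of 15379 rows in all: 49 MRPL genes, named for the large subunit, and 28 MRPS genes, named for the small subunit. MRPS24 was left out with 5, 1 and 0 counts in the 41C libraries, against 7, 4 and 1 counts in the 37C libraries. The member nearest the limit was MRPS28, with 60, 70 and 48 counts at 41C, against 63, 58 and 56 counts at 37C. All 77 passed the filter on low counts that left 12056 genes to test.

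Heat-treated cells were held at 41C for 1 hour per day over 3 days, and the control cells had the same schedule at 37C, with 3 libraries of poly(A) RNA per temperature. All 6 libraries came from HaCaT cells, a single line with no genetic change named in the labels, with a delay between the final exposure and lysis not given in the sources used here. Totals were 20139202 to 20856144 counts in the 41C libraries and 19659112 to 19745664 counts in the 37C libraries. Nothing in the labels says that replicates were grown separately, so the p-values reflect the spread among these 6 samples alone, and that spread may be technical. The 7 keratinocyte markers summed to 7582 to 7904 CPM (counts per 1e6 counts of the library) at 41C and to 6644 to 7216 CPM at 37C. Of the 7, 3 (KRT14, COL17A1 and ITGB4) were called, all with higher values at 41C, where 1.09% of the genes tested were called. Their log2 changes (41C over 37C) were 0.22, 0.26 and 0.25. KRT5, SFN, TP63 and DSG3 had 0.19, 0.077, 0.035 and -0.0087 without a call. The marker sums were not scaled between libraries, whereas all CPM values further below were. Melanocyte markers summed to 1.69 to 2.95 CPM at 41C and 1.98 to 2.68 CPM at 37C, and fibroblast markers to 3.09 to 3.36 CPM at 41C and 3.55 to 4.32 CPM at 37C. Leukocyte markers, most of whose counts were CD68, summed to 14.1 to 17.7 CPM at 41C and 15.1 to 19.1 CPM at 37C. The part of these markers in the values below was not tested.

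The mitochondrial ribosome translates the few messenger RNAs of mitochondrial DNA, which encode core subunits of the respiratory chain and of ATP synthase. Its RNA is made in the organelle, whereas its proteins are encoded by nuclear genes scattered over the genome, made in the cytosol and imported. The small subunit binds and decodes the messenger RNA, the large subunit forms the peptide bonds, and many of the proteins have no counterpart in bacteria.

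No mitochondrial ribosomal protein mRNA was called at 41C against 37C. The count was 0 of 77 members, in either direction (edgeR's quasi-likelihood test, Benjamini-Hochberg adjusted p under 0.05), where 1.09% of the 12056 genes tested were called. Most members had slightly lower values after heat: 62 of 77 log2 changes (41C over 37C) were below 0 with TMM scaling, 63 with DESeq2's factors and 64 with upper-quartile factors, but 30 once each library's trend on gene length was removed. The median log2 change was -0.037 over the members, with a range of -0.19 to 0.10, and 0.0023 over all genes tested. In bulk RNA, fewer cells that carry a transcript and less of it per cell cannot be told apart.

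The absence of calls went with tight intervals. For 71 of 77 members the 95% interval of the change lay within 1.2-fold in both directions, as it did for 51.7% of all genes tested. The exceptions were MRPL1, MRPL23, MRPL41, MRPL55, MRPS18C and MRPS28, and the widest interval was that of MRPS28, which reached down to 0.731-fold. Standard errors of the log2 changes had a median of 0.064 and ran from 0.044 to 0.20. Mean counts had a median of 1130 over the members and 677 over all genes tested. The part of count in the width of the intervals was not tested. Within the 41C libraries the median coefficient of variation was 3.96% over members and 4.97% over all genes tested, and within the 37C libraries it was 4.58% and 6.68%.

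Only 2 members had an unadjusted p under 0.05, against 13.7% of all genes tested, and both had lower values at 41C. MRPS22, a small-subunit protein without a bacterial counterpart whose mutations cause mitochondrial disease, had 98.3, 92.1 and 99.5 CPM at 41C, against 108, 103 and 107 CPM at 37C. All 3 heat-treated libraries lay below all 3 controls, and the log2 change was -0.13 ± 0.052 (SE, adjusted p = 0.272). MRPL51, a large-subunit protein without a bacterial counterpart, had 126, 123 and 128 CPM at 41C, against 134, 132 and 143 CPM at 37C. These groups did not overlap either, at a log2 change of -0.12 ± 0.050 (adjusted p = 0.308). With the length trend removed the log2 changes were -0.071 ± 0.054 (adjusted p = 0.635) for MRPS22 and -0.021 ± 0.049 (adjusted p = 0.910) for MRPL51. DESeq2 and limma-voom also called 0 members, each with 2 at an unadjusted p under 0.05, where they called 8.02% and 1.02% of the genes that had an adjusted p. DESeq2 gave an adjusted p to only 3155 of 15377 genes, and a member without one could not be called. How many members had one is not given here. Limma called 0 members on log2(FPKM + 1) and 0 on log2(FPKM + 0.1), where 11 and 40 of the 12056 genes tested were called. On each, 7 members had an unadjusted p under 0.05. The share of all genes under that p is not given here for these alternatives.

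**Figure D1:**
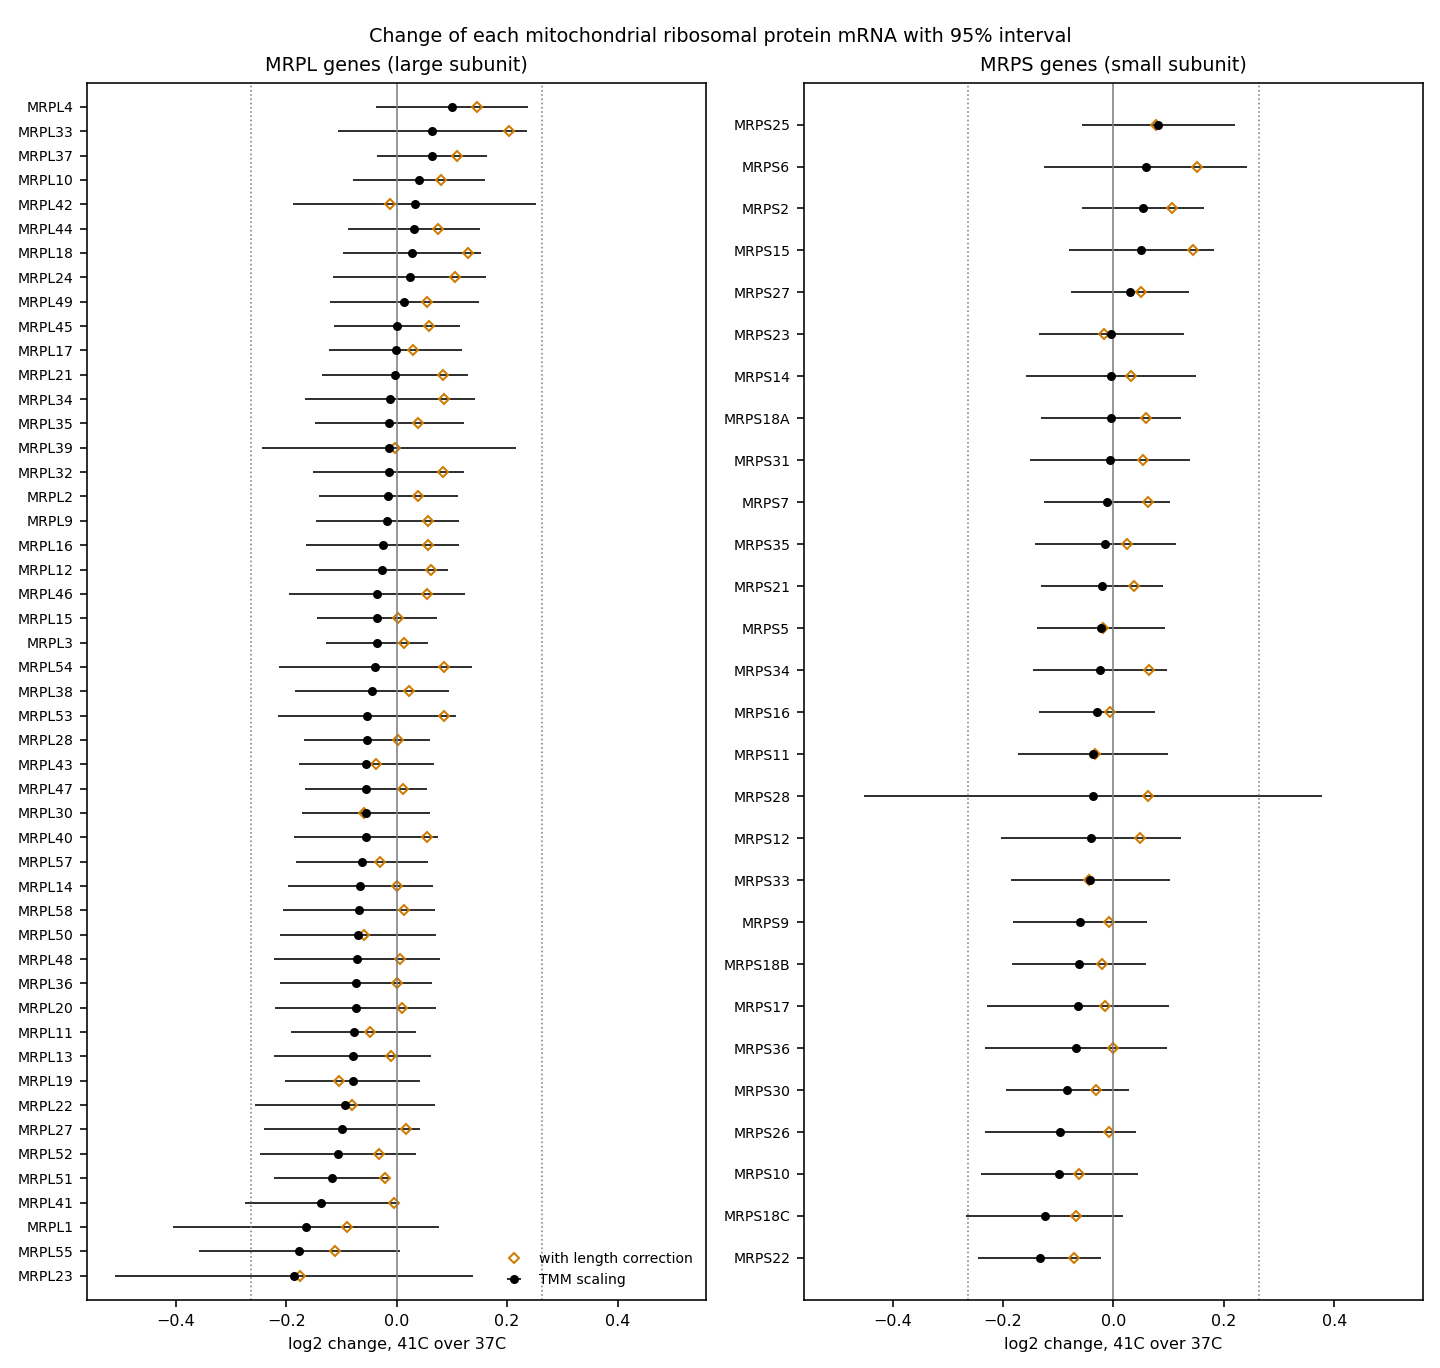
Log2 change (41C over 37C) of each of the 77 members by subunit, as fitted (filled circles with 95% intervals) and after removal of each library's trend on gene length (open diamonds); dotted lines mark a 1.2-fold change in either direction. Of the circles 62 lie below 0 and of the diamonds 30, and 71 of the 77 intervals stay between the dotted lines.

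Promoter sequence, which the choice of members did not use, was searched for known motifs. RefSeq windows from 250 bases before to 50 bases after the transcription start (GRCh38.p14) matched 68 of the 77 members. Each was searched on both strands for CCGGAAG, the core bound by GABP and other ETS factors, for AAGATGGCG (YY1), for GCGCATGCG (NRF1) and for a heat shock element of 3 GAA units in alternating direction, each 2 bases from the next. Matches of different motifs overlapped in 1 member window, that of MRPL48, where the heat shock element and CCGGAAG matches share bases. CCGGAAG stood in 29 of 68 member windows (42.6%), against 19.9% of the 9812 windows of genes tested and 10.7% of all 27305 windows. Cytosolic ribosomal protein genes held it in 21 of 61 windows (34.4%). The share was 40.5% for the large subunit and 46.2% for the small. The YY1 letters stood in 12 member windows (17.6%), against 4.13% of windows of genes tested, 1.85% of all and 8.2% of those of cytosolic ribosomal protein genes. The NRF1 letters stood in 3 (MRPL17, MRPL22 and MRPS18C; 4.41%), against 3.76% and 2.1%. Heat shock element letters stood in 2, MRPL48 and MRPL51 (2.94%), against 0.285% of windows of genes tested and 0.487% of all. Such a match is a description of the letters in the window and no evidence of binding, and no difference between these shares was tested. The 250 bases before the start are printed for the 2 members with the smallest p as fitted (MRPS22, at chr3:139343744-139343993 on the plus strand, and MRPL51, at chr12:6493263-6493512 on the minus strand) and the 2 with the smallest p after the length correction (MRPS15, at chr1:36464385-36464634 on the minus strand, and MRPL33, at chr2:27771469-27771718 on the plus strand). They run 5′ to 3′ along the gene's strand, and capitals mark CCGGAAG or its reverse complement CTTCCGG and, in MRPL51, the heat shock element.
MRPS22: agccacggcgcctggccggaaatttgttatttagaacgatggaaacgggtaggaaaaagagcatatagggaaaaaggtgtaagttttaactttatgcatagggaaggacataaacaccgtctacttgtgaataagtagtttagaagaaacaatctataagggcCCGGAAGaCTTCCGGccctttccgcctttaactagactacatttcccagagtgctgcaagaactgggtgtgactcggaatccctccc
MRPL51: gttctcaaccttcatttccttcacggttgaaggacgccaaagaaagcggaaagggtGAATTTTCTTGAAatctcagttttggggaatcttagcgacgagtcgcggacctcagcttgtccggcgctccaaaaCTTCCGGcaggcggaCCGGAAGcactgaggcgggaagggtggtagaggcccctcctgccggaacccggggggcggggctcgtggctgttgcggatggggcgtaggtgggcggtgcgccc
MRPS15: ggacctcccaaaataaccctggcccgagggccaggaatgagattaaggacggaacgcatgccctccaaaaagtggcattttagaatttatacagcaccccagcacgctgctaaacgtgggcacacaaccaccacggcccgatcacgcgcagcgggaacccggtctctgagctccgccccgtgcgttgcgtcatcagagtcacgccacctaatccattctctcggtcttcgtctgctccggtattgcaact
MRPL33: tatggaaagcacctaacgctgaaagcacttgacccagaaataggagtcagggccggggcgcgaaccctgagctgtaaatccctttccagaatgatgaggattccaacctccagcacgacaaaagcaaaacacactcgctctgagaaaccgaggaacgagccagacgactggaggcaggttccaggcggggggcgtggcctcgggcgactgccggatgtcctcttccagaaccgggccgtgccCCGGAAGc

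Before its start MRPS22 carries the ETS core as a pair in opposite directions, 1 base apart, the farther beginning 87 bases upstream. Another copy lies just after the start, beyond the printed stretch. MRPL51 carries it in both directions too, with the heat shock element letters beginning 194 bases before the start. No link between those letters and the level of its mRNA was tested. The window of MRPS15 holds none of the searched letters, and that of MRPL33 has the ETS core directly before the start. Members with the ETS core had a median log2 change of -0.054 (28 of 29 below 0), and those without it -0.015 (26 of 39 below 0). With the length trend removed the medians were 0.011 with the core (11 of 29 below 0) and 0.030 without it (16 of 39 below 0). The 12 members with the YY1 letters had a median of -0.066, with 11 below 0, and the 56 without them one of -0.033, with 43 below 0. After the correction the medians were -0.016 with them (7 of 12 below 0) and 0.021 without them (20 of 56 below 0).

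The lower values were not spread evenly over the libraries. The 77 genes together took 0.518%, 0.505% and 0.519% of the counts at 41C, against 0.525%, 0.522% and 0.547% at 37C, so the shares of the groups did not overlap. Summed CPM with TMM scaling was 5190, 5074 and 5264 at 41C, against 5186, 5194 and 5468 at 37C, where the groups overlapped. The top value was that of 37C replicate 3, and 33 of the 77 members had their highest CPM in that library. The most frequent lowest library was 41C replicate 2, with 28 members.

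Each member's log2 CPM was also set relative to its mean over the 6 libraries. The median of these deviations was -0.014, -0.048 and -0.0012 at 41C, against -0.012, -0.0013 and 0.066 at 37C. A single control library, replicate 3, stood above the other 5. With each library's length trend removed the medians were 0.034, -0.016 and 0.0080 at 41C, against -0.0039, -0.028 and 0.0016 at 37C. The groups overlapped in both measures, and after the correction 37C replicate 3 lay within the range of the others. Without that library 46 of 77 log2 changes were below 0, against 51.1% of the genes tested in that fit. The member median was then -0.018, and 0 members were called.

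**Figure D2:**
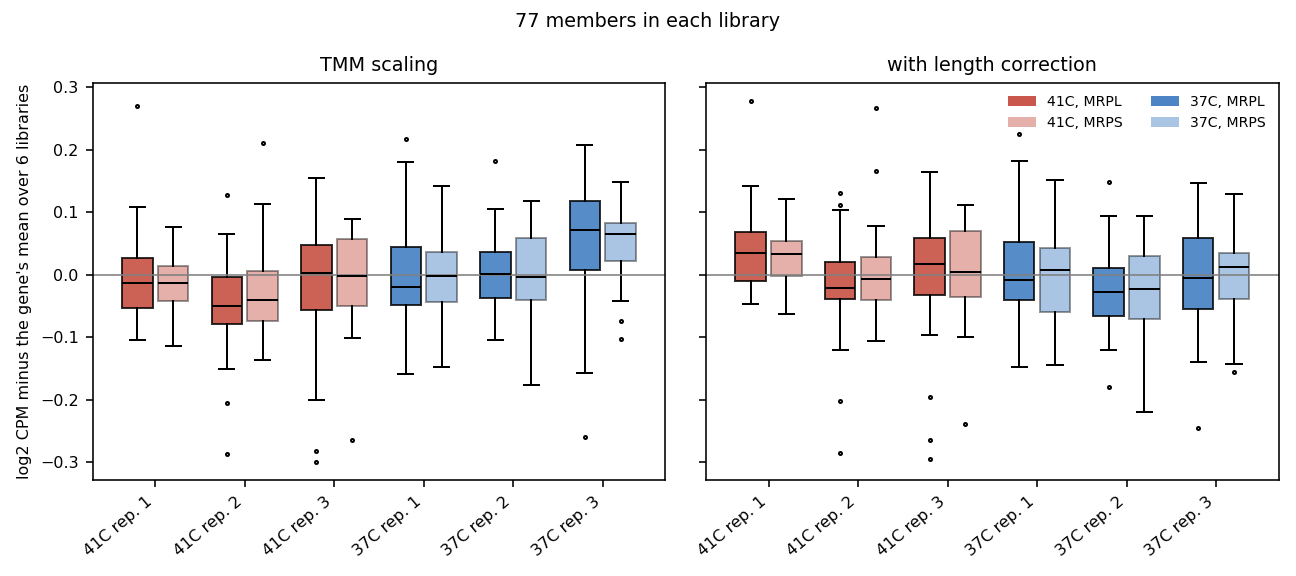
Deviation of each member's log2 CPM from its own mean over the 6 libraries, by library and subunit, as measured (left) and with the length trend removed (right); boxes span the quartiles with a line at the median, and genes beyond the whiskers are drawn as points. 37C replicate 3 is raised as measured (median 0.066 over the 77 members) and not after the correction (0.0016).

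Gene length moved with these values. Members are short: the median length the authors used was 1540 bases (range 496 to 15560), against 4038 bases over the genes tested, and 71 of 77 were shorter than that. Over the 12056 genes tested, a library's deviations correlated with length at a Spearman rho of 0.21, 0.221 and 0.0511 in the 41C libraries and 0.131, -0.0352 and -0.421 in the 37C libraries. The fitted log2 change correlated with length at a rho of 0.254 over all genes (0.0697 without 37C replicate 3) and 0.0832 over the 77 members. These are correlations across genes of the same 6 libraries, and genes are not independent replicates.

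Set beside genes of their own length, the members had medians above those of all genes in some length classes and below them in others. Among genes of 1000 to 1500 bases, 22 of 23 members were below 0 with a median log2 change of -0.066, and 72.8% of all 672 genes tested were below 0 with a median of -0.056. From 1500 to 2000 bases the 16 members had a median of -0.018 and all 895 genes one of -0.032. From 750 to 1000 bases the 9 members had a median of -0.014 and all 255 genes one of -0.071. From 2000 to 3000 bases, the 11 members had a median of -0.030 and all 2120 genes one of -0.017. The largest gap below all genes was from 3000 to 5000 bases, where 8 of 9 members were below 0 with a median of -0.042. Of all 3390 such genes 47.1% were below 0, with a median of 0.0064. The 6 members under 750 bases had a median of -0.055, with -0.093 over all 189 such genes, and the 3 members of at least 5000 bases one of -0.0039, with 0.034 over all 4535.

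**Figure D3:**
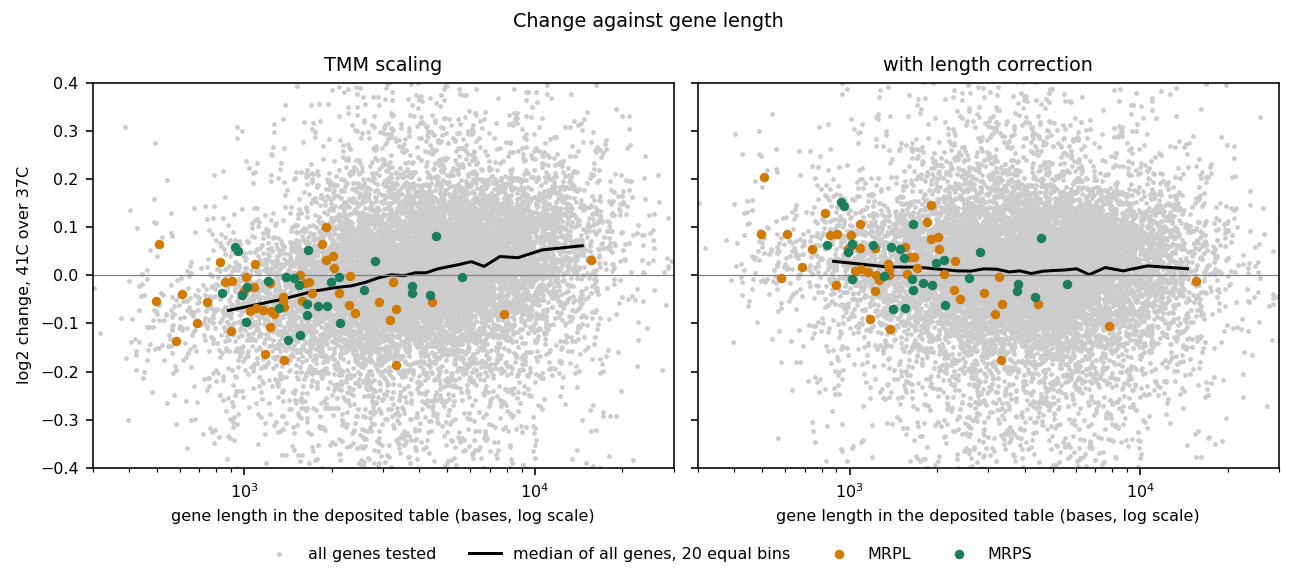
Fitted log2 change (41C over 37C) against gene length on a log axis, for the genes tested (grey, with a line at their running median) and for the members, as fitted (left) and after the length correction (right); genes beyond 0.4 in either direction or beyond the ends of the length axis are not drawn. Short genes lie below 0 as fitted (rho 0.254 over all genes) and not after the correction (rho -0.0114), while the members then run downward with length (rho -0.499).

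Removing each library's length trend raised the log2 change of 71 members and lowered it for 6, by a median of 0.058. It turned 33 members from negative to positive and MRPL42 from positive to negative. After it, 47 members were above 0 and 30 below, with a median of 0.014, against 0.012 over all genes tested, of which 45.4% were below 0. Again 0 of 77 were called, where 0.946% of the genes tested were, and 6 members had an unadjusted p under 0.05, all 6 with higher values at 41C, against 12.8% of all genes. The 95% interval lay within 1.2-fold for 70 members, against 56.2% of all genes; MRPL1, MRPL23, MRPL4, MRPL33, MRPL55, MRPS6 and MRPS28 were the exceptions. Within the members the corrected change correlated with length at a rho of -0.499 (n = 77), so shorter members were the higher ones. The 2 shortest length classes, under 750 bases (6 members) and 750 to 1000 bases (9 members), had corrected medians of 0.070 and 0.083. All genes tested in these classes had corrected medians of 0.039 and 0.028, so they too were above 0. The 9 members of 3000 to 5000 bases had one of -0.045, against 0.0086 over all such genes.

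The 6 members with an unadjusted p under 0.05 after the correction were MRPS15, MRPL33, MRPL4, MRPL37, MRPL18 and MRPS2. MRPS15, a small-subunit protein with a bacterial counterpart, had 114, 116 and 118 CPM at 41C, against 103, 109 and 124 CPM at 37C. Its 3 heat-treated libraries were close together and lay within the wider spread of the controls. The log2 change was 0.051 ± 0.062 as fitted (adjusted p = 0.784) and 0.14 ± 0.054 after the correction (adjusted p = 0.251). MRPL33, a small protein of the large subunit with a bacterial counterpart, had 28.0, 26.6 and 29.9 CPM at 41C, against 25.8, 25.5 and 29.4 CPM at 37C. The groups overlapped through 37C replicate 3, and the change was 0.065 ± 0.081 as fitted and 0.20 ± 0.077 after the correction (adjusted p = 0.252). MRPL33 is 508 bases long, among the shortest members, and 21.1% of its exon bases are shared with BABAM2 on the same strand.

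These small values moved with 1 library. With the correction and without 37C replicate 3, MRPS15 (log2 change 0.20, adjusted p = 0.00699), MRPL33 (0.25, adjusted p = 0.0416), MRPL4 (0.17, adjusted p = 0.0482) and MRPS2 (0.14, adjusted p = 0.0482) were called, and 8.47% of the 12154 genes tested in that fit were called as well. This was the only one of 25 fits in which any member was called. Without the correction, leaving out the same library called 0 members, where 6.62% of genes were called.

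Large and small subunit genes had medians close to each other. As fitted, the median log2 change was -0.045 for the 49 MRPL genes (39 below 0) and -0.027 for the 28 MRPS genes (23 below 0), a difference of -0.018. After the length correction the medians were 0.014 and 0.012, a difference of 0.0018, with 33 of 49 MRPL and 14 of 28 MRPS genes above 0. Taken over the median deviations of the libraries, the difference of the group means (41C minus 37C) was -0.0384 for MRPL and -0.0385 for MRPS genes as measured. With the length trend removed this difference was 0.0241 for MRPL and 0.0113 for MRPS genes. Summed MRPL over summed MRPS CPM was 1.788, 1.767 and 1.775 at 41C, against 1.799, 1.775 and 1.791 at 37C. The groups overlapped in this ratio, which averaged 1.78 ± 0.0105 at 41C and 1.79 ± 0.0123 at 37C (SD, n = 3 each).

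Symbols and structure disagree for a few members. MRPS30 and MRPS18A are placed in the large subunit of the mammalian ribosome, and MRPS36 is a component of the 2-oxoglutarate dehydrogenase complex. With those moved, the medians were -0.045 over 51 large-subunit genes and -0.024 over 25 small-subunit genes as fitted, and 0.014 and 0.025 after the correction. By origin, the 45 members with a bacterial counterpart had a median of -0.036 (0.017 corrected) and the 31 mitochondria-specific members one of -0.042 (0.013 corrected). MRPS18A and MRPS18B, though relatives of bacterial S18, were placed among the mitochondria-specific members in this split, and MRPS18C among those with a counterpart. No test of either difference was made.

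In a few members the groups stood apart without a call. As fitted, 1 member had all heat-treated libraries above all controls, against 11.2% of genes tested, and 7 had them all below, against 8.84%. The first was MRPS25, a mitochondria-specific small-subunit protein, with 38.8, 38.6 and 37.0 CPM at 41C, against 36.0, 36.9 and 35.2 CPM at 37C. Its log2 change was 0.081 ± 0.066 as fitted (adjusted p = 0.639) and 0.077 ± 0.067 after the correction. The 7 were MRPL47, MRPL51, MRPL55, MRPS9, MRPS18C, MRPS22 and MRPS30. After the correction 8 members stood higher (MRPL18, MRPL33, MRPL37, MRPL44, MRPS2, MRPS7, MRPS15 and MRPS25), against 10.8% of genes tested, and 2 lower (MRPL55 and MRPS18C), against 7.22%.

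Among the large-subunit proteins with the lowest log2 changes, MRPL23, a homologue of a bacterial protein at the rim of the exit tunnel, had 28.8, 19.5 and 19.3 CPM at 41C, against 25.7, 24.9 and 26.4 CPM at 37C. A single heat-treated library, replicate 1, was the highest of all 6 while the other 2 were the lowest. Its log2 change was -0.19 ± 0.14 (adjusted p = 0.631) and ran from -0.40 without 41C replicate 1 to -0.088 without 41C replicate 3 when each library was left out in turn. MRPL55, a counterpart of bacterial L31, had 16.2, 15.8 and 16.8 CPM at 41C, against 18.1, 17.9 and 19.2 CPM at 37C. Its groups did not overlap in either fit, with log2 changes of -0.18 ± 0.086 as fitted (adjusted p = 0.380) and -0.11 ± 0.086 corrected (adjusted p = 0.639). MRPL1, the protein of the mobile stalk beside the exit site for transfer RNA, had 22.1, 22.3 and 18.0 CPM at 41C, against 25.5, 24.8 and 19.6 CPM at 37C. Replicate 3 was the lowest of each group, and the change was -0.16 ± 0.11 (adjusted p = 0.564). MRPL41, a mitochondria-specific protein of the large subunit, had 77.5, 74.8 and 71.9 CPM at 41C, against 75.7, 80.5 and 90.4 CPM at 37C. The controls were more spread out, and its change of -0.14 ± 0.065 (adjusted p = 0.371) was -0.0056 ± 0.061 after the correction; its length is 582 bases.

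At the upper end of the large subunit stood MRPL4, whose bacterial counterpart lines the exit tunnel, with 98.6, 90.1 and 105 CPM at 41C, against 84.6, 92.7 and 96.6 CPM at 37C. The groups overlapped, and the log2 change was 0.10 ± 0.065 as fitted (adjusted p = 0.532) and 0.14 ± 0.060 corrected (adjusted p = 0.314). MRPL37, a mitochondria-specific protein, had 163, 159 and 169.6 CPM at 41C, against 156, 154 and 161 CPM at 37C. Replicate 3 was the highest of each group, and the changes were 0.064 ± 0.047 (adjusted p = 0.593) and 0.11 ± 0.048 corrected (adjusted p = 0.341). MRPL18 is known in human cells to give rise under heat shock to a form that stays in the cytosol and takes part in making heat shock proteins. Its mRNA had 61.3, 58.7 and 65.2 CPM at 41C, against 60.3, 59.7 and 61.6 CPM at 37C, and heat-treated values lay on both sides of the controls. The changes were 0.028 ± 0.059 (adjusted p = 0.886) and 0.13 ± 0.059 corrected (adjusted p = 0.358). Gene-level counts do not tell forms of the protein apart.

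The factor-binding stalk of the large subunit gave no separation. MRPL12, the stalk protein that contacts translation factors, had 105, 97.3 and 103 CPM at 41C, against 103, 98.1 and 110.2 CPM at 37C (log2 change -0.026 ± 0.056, adjusted p = 0.890). Its exons overlap AC139530.2 on the same strand over 68.2% of their bases, so its reads may be shared. MRPL10, which anchors the stalk, had 61.6, 66.7 and 65.6 CPM at 41C, against 62.7, 62.0 and 63.9 CPM at 37C (log2 change 0.041 ± 0.057, adjusted p = 0.817). In both genes the groups overlapped.

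Proteins at the exit tunnel and with known enzymatic relatives gave no call. MRPL45, which holds the tunnel exit at the inner membrane, had 104, 108 and 114 CPM at 41C, against 107, 106 and 113 CPM at 37C (log2 change 0.00078 ± 0.054, adjusted p = 0.997). MRPL44, which carries a fold of the ribonuclease III family, had 56.5, 55.1 and 55.9 CPM at 41C, against 53.7, 54.9 and 55.3 CPM at 37C (log2 change 0.031 ± 0.057, adjusted p = 0.865). MRPL58, a peptidyl-tRNA hydrolase related to release factors, had 37.7, 37.2 and 39.1 CPM at 41C, against 40.1, 38.6 and 40.9 CPM at 37C (log2 change -0.068 ± 0.065, adjusted p = 0.707). Groups overlapped in all 3 as fitted, and those of MRPL44 stood apart after the correction (0.075 ± 0.058, adjusted p = 0.641).

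MRPL3, a core large-subunit protein with the highest CPM of the members named here, had 251, 240.4 and 245 CPM at 41C, against 258, 242 and 255 CPM at 37C (log2 change -0.036 ± 0.044, adjusted p = 0.781). MRPL28, first described as a melanoma antigen, had 97.2, 90.7 and 95.2 CPM at 41C, against 94.1, 97.2 and 103 CPM at 37C (log2 change -0.054 ± 0.054, adjusted p = 0.725). MRPL32, whose maturation by a membrane protease controls ribosome assembly in yeast and mouse, had 53.7, 51.6 and 59.0 CPM at 41C, against 54.8, 57.6 and 53.5 CPM at 37C (log2 change -0.014 ± 0.065, adjusted p = 0.953). The groups of each of these genes overlapped.

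In the small subunit, MRPS12, the counterpart of the bacterial protein that guards decoding accuracy, had 30.7, 28.7 and 28.3 CPM at 41C, against 30.4, 27.8 and 32.1 CPM at 37C (log2 change -0.041 ± 0.077, adjusted p = 0.871). MRPS16, whose mutation is known to cause a respiratory chain disorder, had 111, 114 and 114 CPM at 41C, against 113, 114 and 120.0 CPM at 37C (log2 change -0.030 ± 0.050, adjusted p = 0.850). Both overlapped between groups. MRPS2, a counterpart of bacterial S2, had 161, 160.0 and 167 CPM at 41C, against 147, 155 and 167 CPM at 37C. The controls were more spread out and reached the heat-treated values, and the log2 changes were 0.053 ± 0.052 (adjusted p = 0.718) and 0.11 ± 0.048 corrected (adjusted p = 0.358). MRPS6, a counterpart of bacterial S6, had 25.9, 30.3 and 29.8 CPM at 41C, against 28.5, 24.8 and 29.3 CPM at 37C. Its groups overlapped, and the changes were 0.058 ± 0.087 (adjusted p = 0.828) and 0.15 ± 0.083 corrected (adjusted p = 0.467). MRPS10, another protein with a bacterial counterpart, and MRPS26, a mitochondria-specific one, had log2 changes of -0.10 ± 0.067 (adjusted p = 0.563) and -0.10 ± 0.065 (adjusted p = 0.557).

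Of the 3 relatives of bacterial S18, 0 were called. MRPS18C had 34.5, 33.6 and 34.7 CPM at 41C, against 35.9, 38.8 and 37.4 CPM at 37C. Its groups did not overlap, and the log2 change was -0.12 ± 0.067 (adjusted p = 0.431), or -0.068 ± 0.068 corrected (adjusted p = 0.733). MRPS18B had 112, 107 and 124 CPM at 41C, against 119, 117 and 122 CPM at 37C (log2 change -0.063 ± 0.057, adjusted p = 0.689), and MRPS18A had 58.3, 55.8 and 61.9 CPM at 41C, against 59.0, 57.1 and 60.4 CPM at 37C (log2 change -0.0047 ± 0.060, adjusted p = 0.987). Groups of the last pair overlapped; RSPH9 covers 47.0% of the exon bases of MRPS18A on the opposite strand. MRPS30 had 79.1, 76.2 and 75.5 CPM at 41C, against 81.4, 83.3 and 79.9 CPM at 37C, without overlap, at a log2 change of -0.083 ± 0.053 (adjusted p = 0.521). MRPS36 had 25.6, 25.8 and 24.6 CPM at 41C, against 28.6, 25.6 and 25.5 CPM at 37C, where 37C replicate 1 was the highest, at a change of -0.068 ± 0.078 (adjusted p = 0.763). The scarcest member by counts, MRPS28, had 2.88, 3.40 and 2.42 CPM at 41C, against 3.16, 2.93 and 2.84 CPM at 37C (log2 change -0.038 ± 0.20).

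Levels per length differed far more between members than between temperatures. On the scale of FPKM (counts per kilobase of gene, relative to the library total), the member median was 42.3 with quartiles of 23.1 and 58.4, against 8.05 over all genes tested. The median was 47.9 for large-subunit and 30.9 for small-subunit genes. MRPL51 averaged 139 ± 2.04 FPKM at 41C and 153 ± 6.25 FPKM at 37C (SD, n = 3 each), MRPL3 143 ± 3.59 FPKM at 41C and 148 ± 5.24 FPKM at 37C, MRPL41 128 ± 5.62 FPKM at 41C and 142 ± 12.1 FPKM at 37C and MRPS15 121 ± 1.23 FPKM at 41C and 118 ± 10.6 FPKM at 37C. These 4 had the highest mean FPKM over the 6 libraries. The ranges of mean ± SD met in at least 1 group for MRPL51 and MRPL3, for MRPL51 and MRPL41, for MRPL3 and MRPL41, and for MRPL41 and MRPS15. At the low end were MRPL42 with 2.97 ± 0.195 FPKM at 41C and 2.95 ± 0.463 FPKM at 37C, MRPS28 with 3.44 ± 0.595 FPKM at 41C and 3.58 ± 0.225 FPKM at 37C, MRPL39, which resembles threonyl-tRNA synthetase, with 4.11 ± 0.497 FPKM at 41C and 4.21 ± 0.352 FPKM at 37C, and MRPL23 with 6.74 ± 1.65 FPKM at 41C and 7.77 ± 0.202 FPKM at 37C. The highest mean was 49.3 times the lowest. MRPL42 has the longest length of the members, 15560 bases, by which its FPKM was divided, and it had 49.4, 43.5 and 46.8 CPM at 41C, against 52.0, 46.4 and 38.3 CPM at 37C (log2 change 0.032 ± 0.10, adjusted p = 0.930). MRPL39 had a log2 change of -0.014 ± 0.11 (adjusted p = 0.976).

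**Figure D4:**
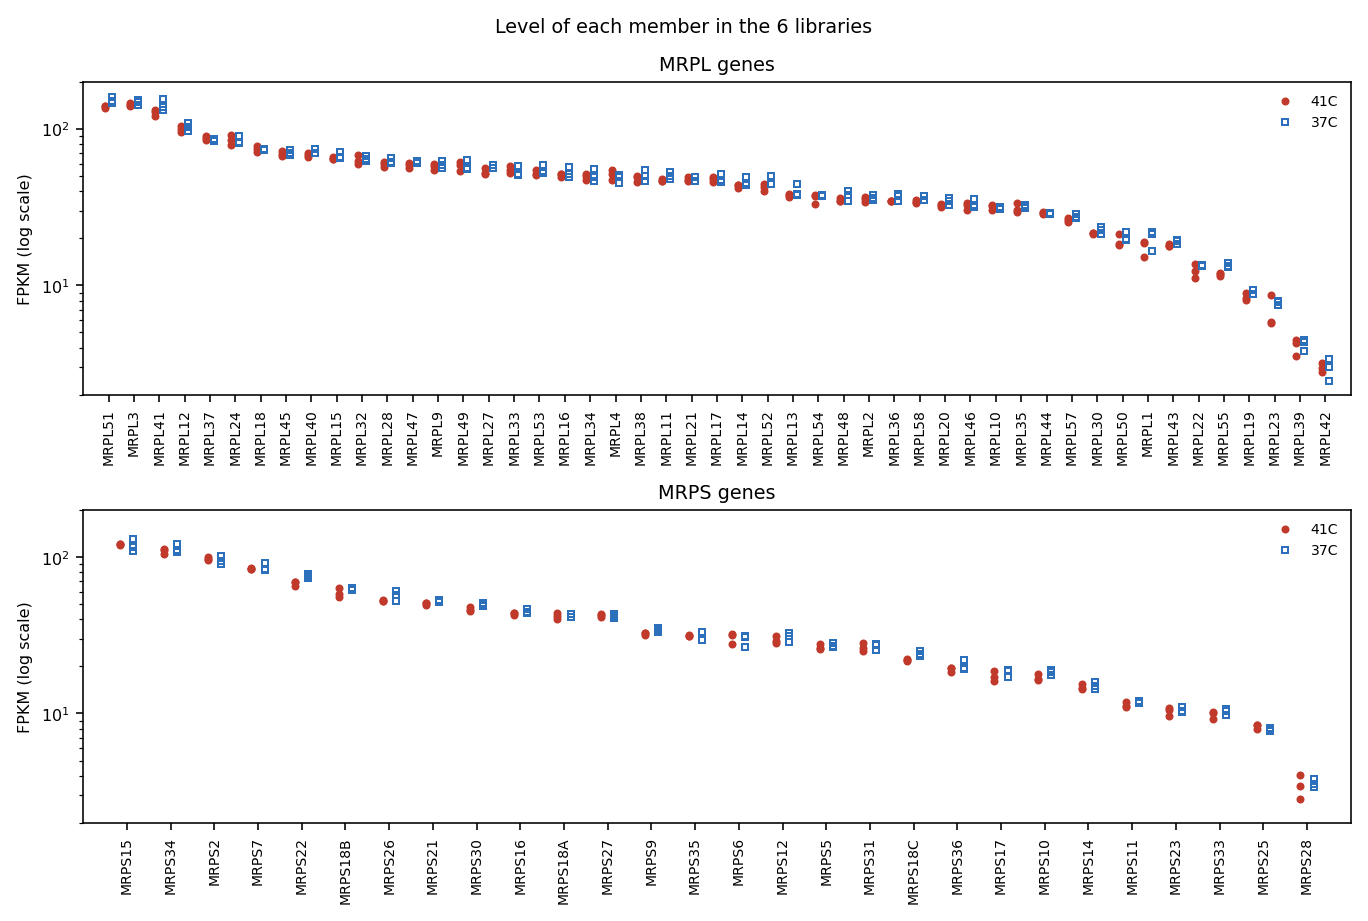
FPKM of each member (log axis) in the 3 libraries at 41C (filled circles) and the 3 at 37C (open squares), by subunit and in order of mean level. Mean levels spread over 49.3-fold, far more than the libraries of any member, with MRPL51, MRPL3, MRPL41 and MRPS15 at the top and MRPL42 and MRPS28 at the bottom.

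Ribosome proteins under other names gave no call either. Of 7 such genes, 5 were tested and 4 of the 5 log2 changes were below 0 as fitted (median -0.015), whereas 4 of the 5 were above 0 after the length correction (median 0.041). DAP3, a GTP-binding small-subunit protein also known from cell death, had a log2 change of 0.0022 ± 0.051 (adjusted p = 0.993), and PTCD3, a pentatricopeptide protein of the small subunit, one of -0.029 ± 0.059 (adjusted p = 0.882). CHCHD1 had -0.084 ± 0.090 (adjusted p = 0.744), AURKAIP1 -0.015 ± 0.076 (adjusted p = 0.961) and GADD45GIP1, of the large subunit, -0.0048 ± 0.062 (adjusted p = 0.988).

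Genes that build and serve the ribosome were likewise without calls. Of 33 assembly and rRNA processing genes 31 were tested, 0 were called, and 20 of 31 log2 changes were above 0 with a median of 0.019 (0.022 corrected). In 3 of the 31 all heat-treated libraries lay above all controls, as they did in 11.2% of genes tested. The assembly GTPase MTG2 had 47.7, 44.0 and 48.0 CPM at 41C, against 41.7, 42.9 and 42.8 CPM at 37C (log2 change 0.13 ± 0.063, adjusted p = 0.376). RCC1L, a large-subunit assembly factor, had a log2 change of 0.10 ± 0.058 (adjusted p = 0.450), and ELAC2, which trims the ends of transfer RNAs, one of 0.091 ± 0.047 (adjusted p = 0.416).

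Of 16 translation factors and mRNA handling genes 15 were tested and 0 called, with a median of 0.0067. MTRF1L, a release factor, averaged 15.3 ± 1.70 CPM at 41C and 12.9 ± 0.138 CPM at 37C (SD, n = 3 each), without overlap of the groups, at a log2 change of 0.24 ± 0.10 (adjusted p = 0.298). SLIRP, which protects mitochondrial mRNA together with LRPPRC, had 43.4, 42.1 and 40.1 CPM at 41C, against 44.2, 46.9 and 49.1 CPM at 37C. The groups of SLIRP did not overlap, and its change of -0.16 ± 0.066 (adjusted p = 0.296) was -0.0039 ± 0.066 after the length correction. MRRF, the recycling factor, had a change of -0.12 ± 0.053 (adjusted p = 0.343).

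All 20 mitochondrial tRNA synthetase genes were tested and 0 called, with a median of -0.011; VARS2 had a log2 change of -0.12 ± 0.065 (adjusted p = 0.428), CARS2 0.11 ± 0.062 (adjusted p = 0.450) and PARS2 -0.16 ± 0.10 (adjusted p = 0.496). Of 14 genes of mitochondrial transcription and its regulators 13 were tested and 0 called, with a median of -0.0065. PPRC1, a coactivator related to PGC-1, had 108, 107 and 118 CPM at 41C, against 101, 94.2 and 103 CPM at 37C (log2 change 0.16 ± 0.056, adjusted p = 0.210). MYC, a transcription factor of growth and ribosome production, averaged 253 ± 6.33 CPM at 41C and 234 ± 13.1 CPM at 37C (SD, n = 3 each) (log2 change 0.11 ± 0.048, adjusted p = 0.325). POLRMT, the mitochondrial RNA polymerase, had a change of 0.11 ± 0.059 (adjusted p = 0.404). The groups of PPRC1 did not overlap and those of MYC did. Both genes, with CARS2, were called when 37C replicate 3 was left out, a fit that called 6.62% of its 12154 genes.

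Cytosolic ribosomal protein genes and respiratory chain genes, with median lengths of 1105 and 1215 bases, also had log2 changes mostly below 0 as fitted. Of the 76 cytosolic ribosomal protein genes tested, 0 were called and all 76 log2 changes were below 0 as fitted, with a median of -0.083; after the length correction 40 were below 0, with a median of -0.0098. Of 77 genes of the respiratory chain and ATP synthase, 0 were called and 72 were below 0 as fitted, with a median of -0.072; after the correction 40 were below 0, with a median of -0.0067. The corresponding medians of the mitochondrial ribosomal proteins were -0.037 as fitted and 0.014 corrected. As fitted, 28 cytosolic and 19 respiratory chain genes had an unadjusted edgeR p under 0.05, all with lower values at 41C. The members had 2 such genes, and the share over all genes was 13.7%. All heat-treated libraries lay below all controls in 33 cytosolic genes, 19 respiratory chain genes and 7 members, against 8.84% of all genes. After the correction 6 cytosolic and 4 respiratory chain genes had such a p, against 12.8% of all genes. No test of the difference between the lists was made.

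Reads of some members may be shared with other genes. In GENCODE release 29, 25 members have at least 10% of their exon bases inside another gene's exons, 16 of them on the opposite strand, and 34 have named pseudogenes (75 in all). How strand and reads with several matches were handled is not stated in the labels, so the values of these members are uncertain. The 52 members without such overlap had a median log2 change of -0.048 as fitted and 0.0011 after the length correction, and 0 were called. For MRPS28, 35.8% of exon bases are shared with AC036214.3, and for MRPS24, the row left out, 23.2% with URGCP-MRPS24, both on the same strand.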

How the data were processed

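Libraries were stranded poly(A) libraries from total RNA, per the labels' protocols. Per the submitters' processing notes, Trimmomatic 0.36 and HISAT2 were used, with GRCh38.p13. Reads were counted by a program, gene models and strand option not given in the sources used here. The authors deposited a table of unnormalised read counts by gene symbol. The deposited FPKM table equals count per fixed gene length and library total within 0.01% for 100% of nonzero values, so it is no independent measurement; it supplied lengths, levels per length and alternative tests.

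From the counts, genes passing filterByExpr (12056) were tested at 41C against 37C on 6 libraries with edgeR 4.0.16 (TMM factors, robust quasi-likelihood, two-sided) in R 4.3.3, adjusted by the Benjamini-Hochberg method over all genes tested, threshold 0.05. Adjusted p-values in the text are edgeR's unless another tool is named. CPM values are TMM-scaled except in the sums of cell type markers, errors of means are SD, and errors of log2 changes are SE. For the length correction, each library's log2 CPM (prior count 2) relative to the gene's mean was fitted on log2 length with a natural spline (4 degrees of freedom) and entered as an offset. With 3 libraries against 3, an exact two-sided permutation test of a single gene cannot go below p = 0.1.

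Named were members past the threshold, the 4 highest and 4 lowest changes per subunit, the 4 highest and 4 lowest by FPKM, 19 members and 5 other ribosome proteins fixed by name for their role, rows beside the count limit, and up to 3 genes per other list with the smallest p. The members and lists were chosen with earlier results of these data known. Positions come from GENCODE 29 and promoters from RefSeq. Alternatives were DESeq2 1.42.0, limma 3.58.1 (voom, and log2 FPKM with pseudocounts of 1 and 0.1), other factors and filters, corrections for GC content, a replicate block and each library left out. Scripts were tested on simulated data. Mitochondrial DNA genes were not analysed here.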

Additional observations from a re-analysis of the deposited data

How the results depend on the processing

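Members called stayed at 0 of 77 as fitted (131 genes called) and under 23 of 24 alternatives. With DESeq2, any member without an adjusted p counted as not called. With the length correction and without 37C replicate 3, 4 members were called. Leaving out each library gave 0 to 0 members as fitted and 0 to 4 with the length correction. Genes called over the whole table moved more: 253 with DESeq2, 284 with no filter, 439 with GC correction, 40 with limma on log2(FPKM + 0.1), 11 on log2(FPKM + 1), 5 to 805 with each library left out, and 6 to 1029 likewise with the length correction. The lowest whole-table counts came without 41C replicate 2 and the highest without 37C replicate 3. The median log2 change of members (-0.037) was 0.014 with the length correction, -0.057 with upper-quartile factors, -0.056 with limma on log2(FPKM + 0.1), -0.052 to -0.018 with each library left out, and 0.0055 to 0.040 likewise with the length correction. The large minus small difference (-0.018) was 0.0018 with the length correction, -0.0088 with GC correction, -0.024 to -0.0079 with each library left out and -0.0063 to 0.015 likewise with the length correction. Upper-quartile factors moved the median of all genes to -0.018, by less than 0.1.

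Same-numbered libraries of the 2 groups had deviations that correlated at 0.082, -0.0194 and 0.0774, and not every library correlated best with its own number, so the replicate numbers were not taken as pairs. A replicate block called 438 genes and 0 members, with 2 members at an unadjusted p under 0.05. With the length correction the block called 341 genes and 0 members, with 7 at an unadjusted p under 0.05, a member median of 0.0145 and a large minus small difference of 0.00047. Depth was 19659112 to 20856144 counts per library, with a median SE of 0.064 over the members. The length correction assumes that a length trend is technical; the part of temperature in that trend cannot be told apart from it.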
